A study of Homo sapiens with 6 samples.

Results

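The proteasome genes were followed in 6 RNA libraries from SK-Hep1 cells, a human line established from liver cancer. Members were all listed genes whose symbol begins with PSMA to PSMG followed by a digit, which gave 47 of 11593 gene symbols and 142 of 28768 transcript rows. Of these 47, 34 encode subunits of the 20S core or the 19S regulatory particle. The others encode 4 activators, 1 inhibitor and 7 assembly chaperones, while PSMC3IP encodes no proteasome subunit but a partner of the meiotic recombination machinery. The testis core subunit PSMA8 and the thymus subunit PSMB11 are absent from the listed genes and were not analysed here.

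The study looked for messenger RNAs bound to SNHG10, a long noncoding RNA. In 3 libraries the ChIRP probes, antisense DNA probes used to retrieve an RNA with what is crosslinked to it, were the complete set against SNHG10 (RiboBio). In the other 3 they were the LacZ control set (Millipore), against a bacterial gene that human cells lack. No treatment is named for any of the 6 libraries. The labels do not say whether the 3 replicates of a probe set came from separate cultures, so p-values measure only the spread between libraries, which may be technical. The protocol describes total RNA taken with Trizol and no pull-down step, while the design text says that retrieved RNA was sequenced, and it is not settled here which fraction the values describe. SNHG10 was not among the rows, so the target of the probes could not be checked.

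Values are FPKM, fragments per kilobase of transcript scaled to the library, summed over the transcripts of a gene. The 3 SNHG10 libraries summed to between 268794 and 272909 FPKM and the 3 LacZ libraries to between 271354 and 277118, and the read depth is unknown. Of 7 hepatocyte markers, SERPINA1 and CPS1 were listed, with sums of 1.04 to 1.72 FPKM with SNHG10 probes and 1.25 to 2.12 with LacZ probes, and the other 5 were not analysed here. None of 4 endothelial markers was listed. Of 4 epithelial markers, the keratins KRT8 and KRT18 were listed, and CDH1 and EPCAM were not. The 2 keratins summed to 1411 to 1671 FPKM with SNHG10 probes and 1589 to 1714 with LacZ probes. The mesenchymal markers VIM, FN1 and COL1A1 summed to 987 to 1305 FPKM with SNHG10 probes and 1058 to 1641 with LacZ probes. CD14, the only one of 4 leukocyte markers that was listed, read at most 2.69 in any library.

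The proteasome degrades proteins that carry ubiquitin chains. Its 20S core is a barrel of stacked alpha and beta rings, in which PSMB6, PSMB7 and PSMB5 cut proteins with caspase-like, trypsin-like and chymotrypsin-like specificity. Interferon induces PSMB9, PSMB10 and PSMB8, which replace these in the immunoproteasome and alter the peptides made for antigen presentation. The 19S particle caps the barrel, recognises ubiquitin, removes it, and unfolds the substrate with a ring of ATPases. When proteasome activity drops, the transcription factor NRF1 (NFE2L1) raises the genes of both particles through antioxidant response elements.

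Promoter sequences are shown for 3 of the 4 members whose probe sets did not overlap, as PSMA7 had no entry. PSMB8 is shown as another immunoproteasome subunit beside PSMB10. The sequences are from RefSeq for GRCh38.p14, from 250 bases before to 50 bases after the start site, written 5′ to 3′ along the gene. Capitals mark TGACNNNGC, the core of the antioxidant response element, or the core of the interferon-stimulated response element (GAAA, any 2 bases, GAAA), on either strand. PSMD9 (chr12:121888540-121888839, plus strand) and PSME4 (chr2:53970944-53971243, minus strand) hold the first, and PSMB10 (chr16:67936801-67937100, minus strand) and PSMB8 (chr6:32843998-32844297, minus strand, the one of its promoters with a match) hold the second.
PSMD9: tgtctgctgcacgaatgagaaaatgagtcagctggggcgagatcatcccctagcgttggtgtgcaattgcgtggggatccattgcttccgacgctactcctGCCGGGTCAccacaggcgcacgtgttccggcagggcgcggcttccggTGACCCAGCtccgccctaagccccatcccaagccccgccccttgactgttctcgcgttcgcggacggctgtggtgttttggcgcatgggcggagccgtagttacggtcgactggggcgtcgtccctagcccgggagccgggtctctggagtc
PSME4: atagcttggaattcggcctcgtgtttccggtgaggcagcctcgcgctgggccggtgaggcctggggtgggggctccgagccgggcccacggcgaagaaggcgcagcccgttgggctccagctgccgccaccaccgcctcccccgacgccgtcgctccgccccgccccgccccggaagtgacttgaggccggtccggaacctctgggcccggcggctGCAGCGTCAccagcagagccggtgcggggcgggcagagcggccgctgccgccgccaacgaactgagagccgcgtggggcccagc
PSMB10: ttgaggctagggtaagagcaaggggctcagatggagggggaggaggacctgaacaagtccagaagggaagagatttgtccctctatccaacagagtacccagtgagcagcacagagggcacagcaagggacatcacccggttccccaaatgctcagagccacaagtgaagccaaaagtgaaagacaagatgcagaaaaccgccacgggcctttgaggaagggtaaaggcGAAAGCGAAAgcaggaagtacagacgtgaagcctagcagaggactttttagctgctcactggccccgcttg
PSMB8: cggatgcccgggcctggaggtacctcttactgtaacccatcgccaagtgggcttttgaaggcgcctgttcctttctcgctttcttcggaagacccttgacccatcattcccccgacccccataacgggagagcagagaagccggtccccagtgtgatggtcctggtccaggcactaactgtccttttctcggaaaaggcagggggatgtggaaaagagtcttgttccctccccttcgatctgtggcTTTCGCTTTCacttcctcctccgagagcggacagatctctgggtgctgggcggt
PSMD9 holds the antioxidant motif on both strands, 149 and 102 bases before the start site. PSMB10 and PSMB8 hold the interferon motif within 21 bases of it, on opposite strands. Of 41 members with a promoter entry, 15 (36.6%) held the antioxidant motif, against 19.5% of 9063 listed genes with an entry and 16.1% of all 27305 genes in the table. CCAAT was in 20 members (48.8%), against 43.4% of listed genes, and TATAAA in 4 (9.76%), against 7.89%. The interferon motif was in 7 (17.1%), against 3.82% of listed genes, and these 7 were PSMA4, PSMB4, PSMB8, PSMB10, PSME1, PSME2 and PSMG4. The other immunoproteasome subunit, PSMB9, had an entry that held the antioxidant motif and not the interferon motif. The matches in capitals did not overlap one another. A match describes letters and is not evidence of binding.

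No proteasome gene passed the test between the probe sets. Gene sums were compared with limma on log2(FPKM + 1) over all 10304 genes that reached 1 FPKM in 3 or more libraries. Calls needed a Benjamini-Hochberg adjusted p under 0.05. All 47 members passed that filter, 0 were called higher and 0 lower, and the smallest adjusted p by limma was 0.885. Over all genes tested, 0% were called higher and 0% lower. At an unadjusted p under 0.05 there were 4 members, PSMD9, PSMB10, PSME1 and PSMA7, and 5.42% of all genes reached that level. Limma without trend and with robust eBayes also called 0. Log2 differences below are SNHG10 probes minus LacZ probes, with their SE, on the log2(FPKM + 1) scale, where differences of low genes come out too small.

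In 4 members (8.51%) every library of one probe set lay above every library of the other, while 11.4% of all genes tested did so. PSMA7, PSMD9 and PSME4 were on the higher side with SNHG10 probes (4.22% of all genes) and PSMB10 on the lower side (7.21%). The same 4 were found after median-ratio scaling and after quantile normalization. The median log2 difference of the 47 members was -0.01, beside -0.05 for all genes tested, and 22 were positive and 25 negative. With median-ratio scaling, which moves the median of all genes to -0.00, 26 members were positive and 21 negative. The median size of the difference, regardless of sign, was 0.17 for members and 0.25 for all genes, and the median SD among libraries of 1 probe set was 0.32 for members and 0.40 for all genes.

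**Figure D1:**
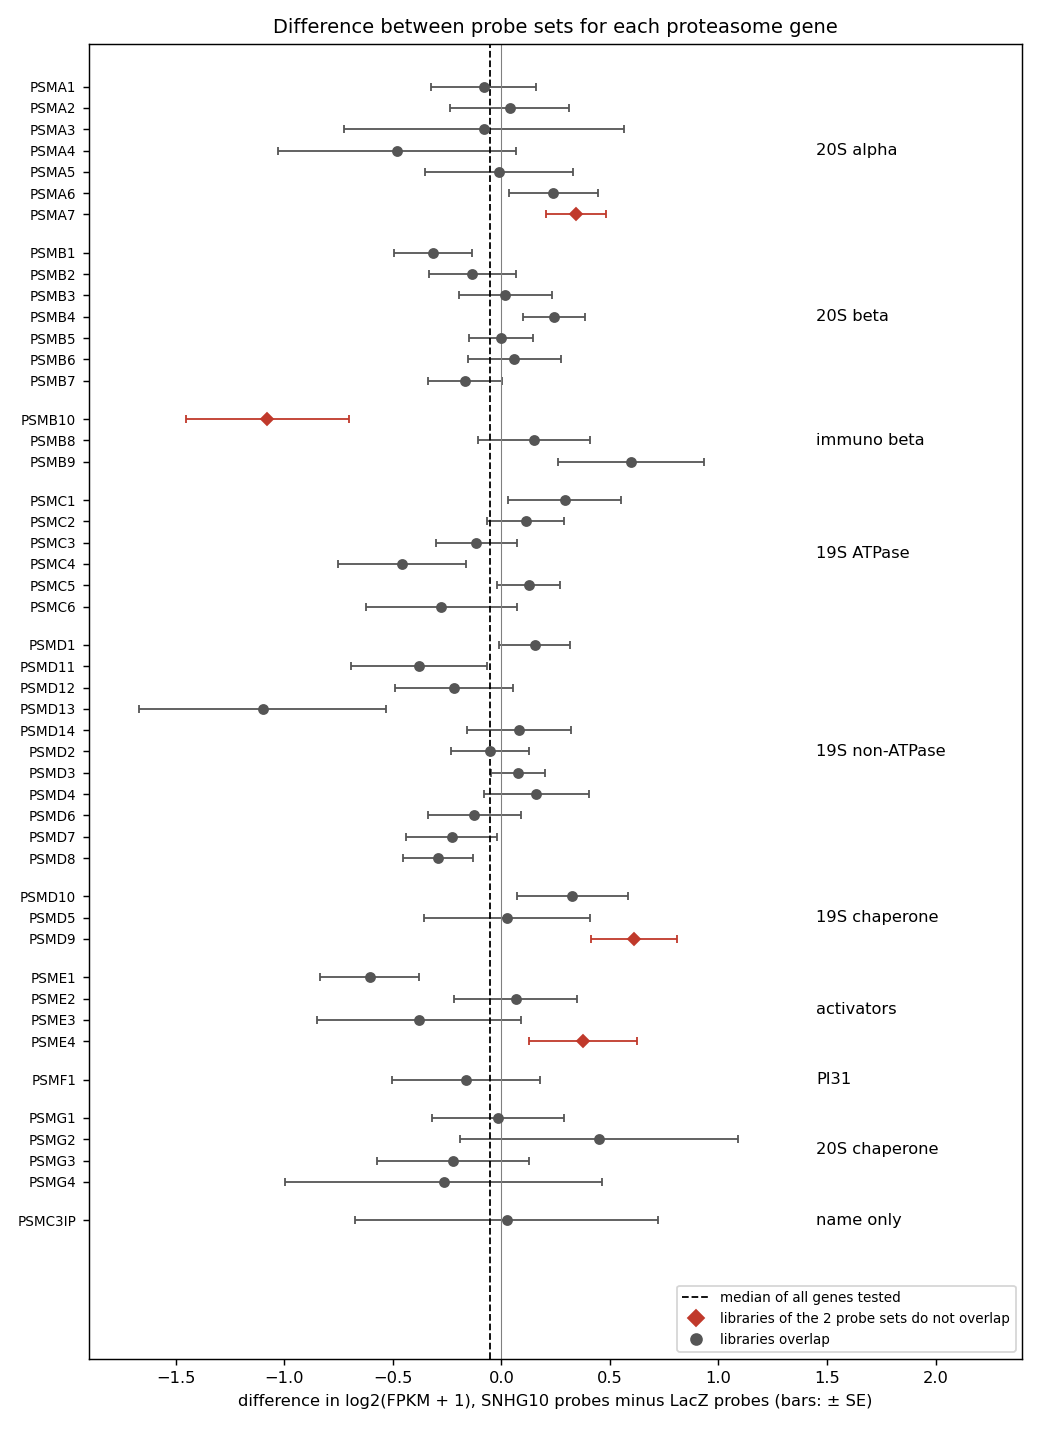
Difference between the probe sets for each of the 47 members, by class. The horizontal axis is the difference in log2(FPKM + 1), SNHG10 probes minus LacZ probes, points are the limma estimates, bars are ± SE, and the dashed line is the median of all genes tested (-0.05). The 4 red diamonds, PSMA7, PSMB10, PSMD9 and PSME4, are the members whose libraries do not overlap.

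Proteasome mRNAs were abundant in these libraries. In bulk RNA, fewer cells with an mRNA and less of it per cell cannot be told apart. The median of the members' mean levels was 30.6 FPKM, beside 7.80 for all genes tested, and 44 of 47 members lay above that overall median. The 1031 most abundant genes tested held 18 members, among them all 7 standard beta subunits. The members without PSMC3IP made up 0.716%, 0.627% and 0.630% of all FPKM with SNHG10 probes, against 0.672%, 0.643% and 0.657% with LacZ probes. These shares overlapped, and the highest was in SNHG10 replicate 1.

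**Figure D2:**
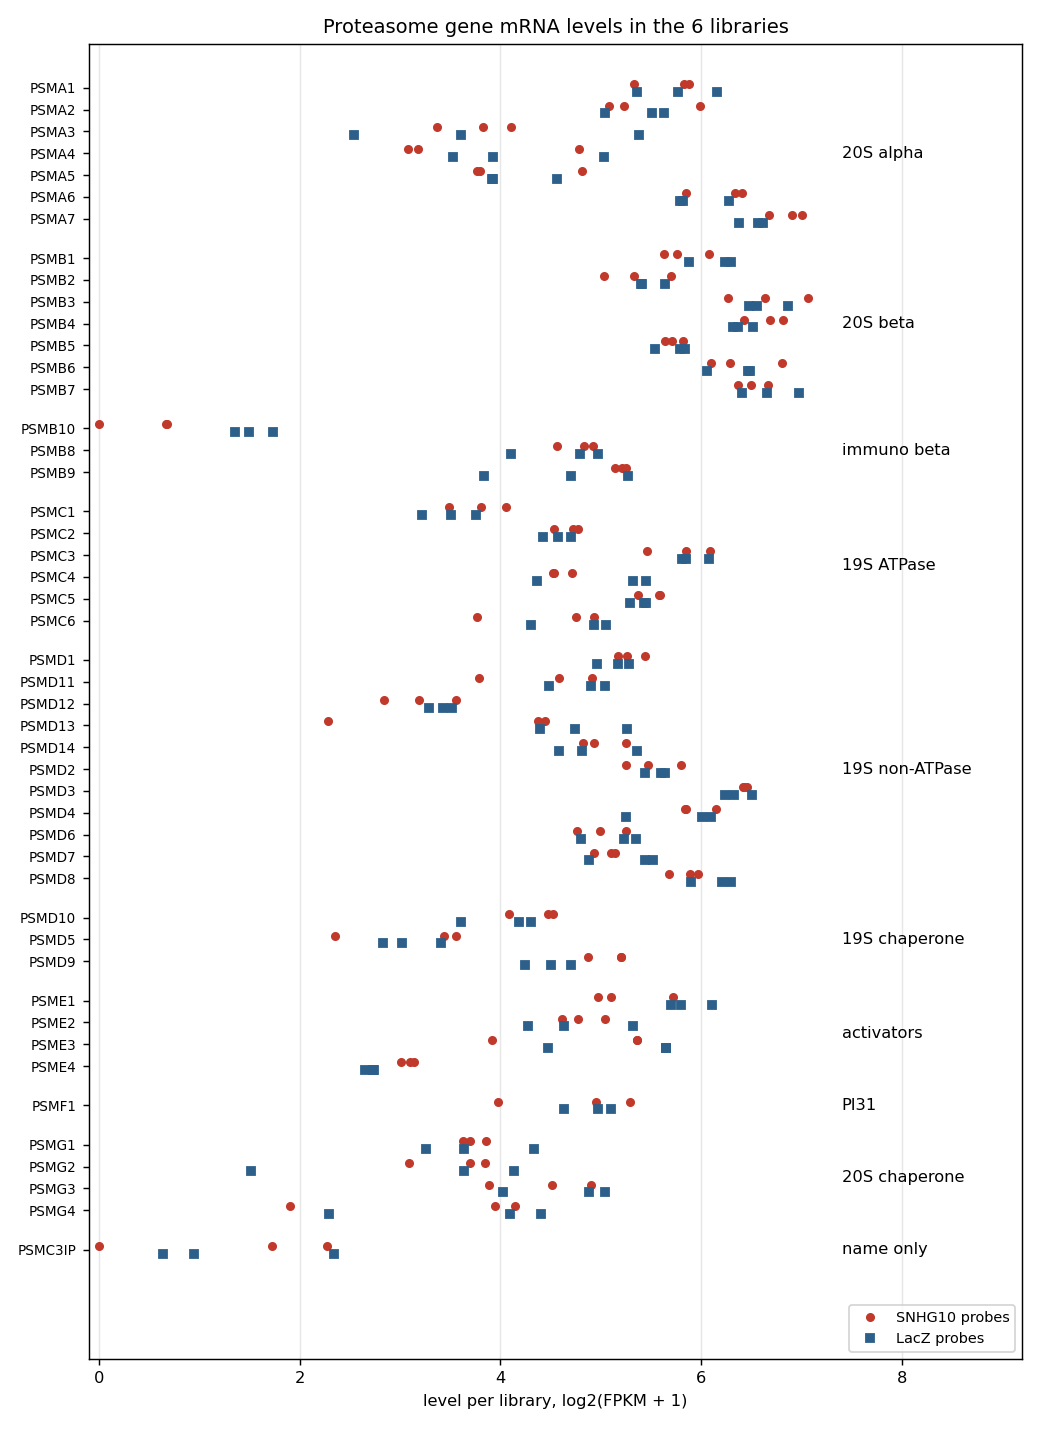
Level of each member in every library, by class, as log2(FPKM + 1) on the horizontal axis. Red circles are the 3 SNHG10 libraries and blue squares the 3 LacZ libraries. The standard beta subunits sit at the high end, PSMB10 and PSMC3IP are the 2 members listed at 0 in a library, and the 2 colours mix in 43 of the 47 rows.

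Alpha subunits form the outer rings of the core and gate the entry of substrates. Their means over the 6 libraries ran from 15.9 FPKM for PSMA3 to 103 for PSMA7, a ratio of 6.51, although the barrel holds these proteins in equal numbers. PSMA7 (chromosome 20, 60711791 to 60718486, minus strand, hg19) was the most abundant member and read 128, 101 and 119 FPKM with SNHG10 probes, against 81.9, 93.6 and 97.3 with LacZ probes. Its lowest SNHG10 library lay above its highest LacZ library, with a log2 difference of 0.34 ± 0.14, an adjusted p of 0.885 by limma and an exact permutation p of 0.1, the smallest that 3 against 3 libraries can give (two-sided). PSMA6 read 79.8, 56.7 and 83.9 FPKM with SNHG10 probes, against 76.5, 54.1 and 55.4 with LacZ probes. PSMA1 read 56.0, 39.2 and 57.9 FPKM with SNHG10 probes, against 70.5, 40.1 and 53.4 with LacZ probes. In both genes the probe sets overlapped, and replicate 2 was the lowest library of each set.

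PSMA2 read 62.4, 32.8 and 36.7 FPKM with SNHG10 probes, against 44.5, 32.0 and 48.5 with LacZ probes. The low alpha subunits varied most between libraries. PSMA3 read 16.2, 9.35 and 13.1 FPKM with SNHG10 probes, against 4.83, 40.7 and 11.1 with LacZ probes, so that LacZ replicates held both its highest and its lowest value. PSMA4 read 8.06, 26.6 and 7.45 FPKM with SNHG10 probes, against 14.2, 31.7 and 10.5 with LacZ probes, with replicate 2 the highest of each set. PSMA5 read 27.1, 12.9 and 12.6 FPKM with SNHG10 probes, against 22.7, 14.1 and 14.2 with LacZ probes, with replicate 1 the highest of each set. Of the 7 alpha log2 differences, 3 were positive and 4 negative, with a median of -0.01.

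The beta subunits form the inner rings. Means ran from 42.2 FPKM for PSMB2 to 101 for PSMB3, a ratio of 2.39, narrower than among the alpha subunits. PSMB3, a structural subunit, read 98.4, 133 and 75.8 FPKM with SNHG10 probes, against 88.3, 93.3 and 116 with LacZ probes. PSMB4, also structural, read 102, 85.1 and 112 FPKM with SNHG10 probes, against 90.6, 78.5 and 81.8 with LacZ probes (log2 difference 0.24 ± 0.14, limma adjusted p = 0.928). PSMB1 read 66.5, 48.6 and 53.2 FPKM with SNHG10 probes, against 77.6, 74.5 and 58.0 with LacZ probes (-0.32 ± 0.18, limma adjusted p = 0.920). PSMB1 and PSMB4 thus differed in sign, and the probe sets overlapped in both. Without SNHG10 replicate 3 the log2 difference of PSMB4 was 0.16. PSMB2 read 50.8, 31.7 and 39.1 FPKM with SNHG10 probes, against 48.8, 41.3 and 41.6 with LacZ probes, where the SNHG10 libraries spanned the wider range.

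Among the standard catalytic subunits, PSMB5 was the steadiest. It read 51.3, 55.4 and 48.8 FPKM with SNHG10 probes, against 56.3, 45.5 and 54.3 with LacZ probes, a log2 difference of -0.00 ± 0.15. PSMB6 read 111, 67.3 and 77.1 FPKM with SNHG10 probes, against 87.3, 88.7 and 65.7 with LacZ probes, and PSMB7 read 101, 89.3 and 81.5 FPKM with SNHG10 probes, against 125, 84.1 and 99.5 with LacZ probes. All 3 overlapped between the probe sets, and their exact permutation p ran from 0.5 to 1 (two-sided, n = 3 each).

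Of the immunoproteasome subunits, PSMB8 and PSMB9 read between 13.3 and 37.7 FPKM and PSMB10 was near 0. PSMB8 (chromosome 6, 32808494 to 32812480, minus strand) read 27.5, 29.3 and 22.7 FPKM with SNHG10 probes, against 26.7, 30.4 and 16.2 with LacZ probes. PSMB9 (chromosome 6, 32812613 to 32827362, plus strand) read 34.4, 37.0 and 36.1 FPKM with SNHG10 probes, against 25.1, 13.3 and 37.7 with LacZ probes, with a log2 difference of 0.60 ± 0.34 and a limma adjusted p of 0.920. The SNHG10 libraries were close together and lay inside the wide range of the LacZ libraries, and the difference was 0.21 without LacZ replicate 2 and 0.93 without LacZ replicate 3. PSMB10 (chromosome 16, 67968405 to 67970990, minus strand) read 0.590, 0.605 and 0 FPKM with SNHG10 probes, against 1.82, 1.56 and 2.33 with LacZ probes. Every SNHG10 library was under every LacZ library, with a log2 difference of -1.08 ± 0.38 and a limma adjusted p of 0.885 (exact permutation p = 0.1, two-sided). At levels this low the fitted difference rests on the pseudocount, and it was -2.44 with a pseudocount of 0.1 and -0.36 with 5. A listed 0 can be a failed estimate in these files, so no ratio of PSMB10 levels between the probe sets is given.

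The ratio of an immunoproteasome subunit to the standard subunit it replaces can be read within a library, since FPKM are per length. PSMB8 to PSMB5 was 0.537, 0.529 and 0.466 with SNHG10 probes, against 0.474, 0.669 and 0.298 with LacZ probes. PSMB9 to PSMB6 was 0.309, 0.550 and 0.468 with SNHG10 probes, against 0.288, 0.150 and 0.573 with LacZ probes. In each library both ratios were under 1, and the standard mRNA was the more abundant one. PSMB10 to PSMB7 was at most 0.00677 with SNHG10 probes and 0.0145 to 0.0234 with LacZ probes. PSMB10 lay far below PSMB8 and PSMB9 in all 6 libraries.

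**Figure D3:**
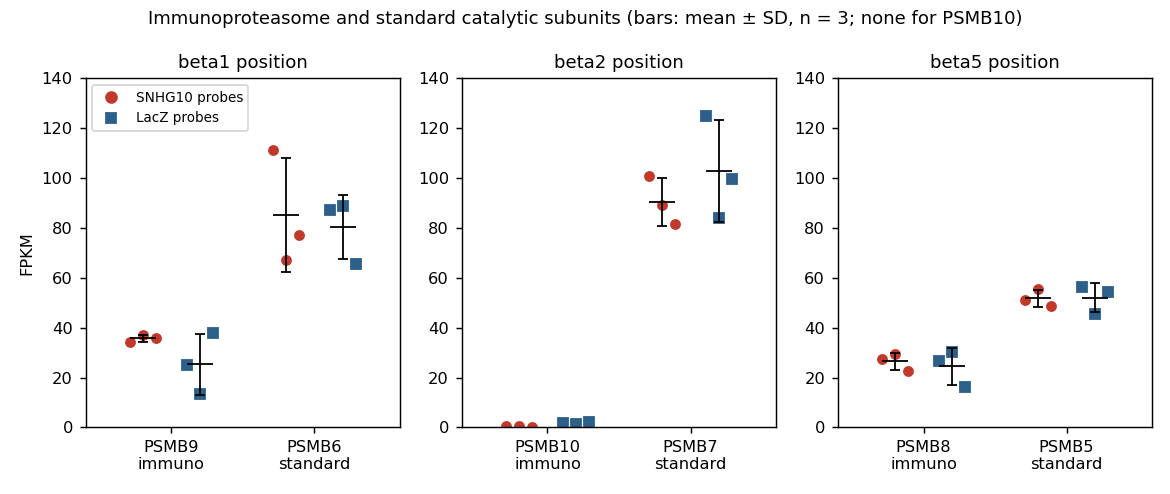
FPKM of the 3 immunoproteasome subunits and of the standard subunits they replace, by position in the beta ring. Red circles are SNHG10 libraries and blue squares LacZ libraries, with black bars for the mean ± SD (n = 3), left out for PSMB10, which is listed at 0 in 1 library. Each standard subunit lies above its partner, and PSMB10 stays at or below 2.33 FPKM.

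The 19S ATPases PSMC1 to PSMC6 form the ring that unfolds substrates. PSMC3 was the most abundant, with 66.8, 43.1 and 56.4 FPKM with SNHG10 probes against 66.4, 55.0 and 56.7 with LacZ probes. PSMC5 read 47.1, 46.9 and 40.4 FPKM with SNHG10 probes, against 42.1, 38.2 and 42.6 with LacZ probes. PSMC2 read 25.3, 22.2 and 26.4 FPKM with SNHG10 probes, against 25.0, 20.4 and 22.8 with LacZ probes. Both were steady, within 1.5-fold between their lowest and highest library. PSMC4 read 22.1, 25.2 and 22.0 FPKM with SNHG10 probes, against 42.6, 39.1 and 19.6 with LacZ probes (log2 difference -0.46 ± 0.29, limma adjusted p = 0.928). LacZ replicate 3 was its lowest library, so the probe sets overlapped, and the difference was -0.26 without LacZ replicate 1 and -0.80 without LacZ replicate 3. PSMC6 read 26.0, 12.6 and 29.5 FPKM with SNHG10 probes, against 29.5, 18.7 and 32.1 with LacZ probes, and PSMC1, the lowest of the ring, 12.9, 10.2 and 15.6 FPKM with SNHG10 probes, against 10.4, 8.29 and 12.5 with LacZ probes. The 6 ATPases split into 3 positive and 3 negative log2 differences, with a median of -0.00.

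The non-ATPase subunits hold the ubiquitin receptors, the deubiquitinase and the scaffold of the 19S particle. PSMD3, of the lid, was the most abundant, with 84.5, 86.7 and 84.9 FPKM with SNHG10 probes against 79.5, 74.3 and 89.9 with LacZ probes. PSMD4, a ubiquitin receptor, read 56.7, 56.2 and 70.0 FPKM with SNHG10 probes, against 67.5, 37.0 and 63.3 with LacZ probes. PSMD14, the deubiquitinase that removes the chain, read 27.2, 37.1 and 29.5 FPKM with SNHG10 probes, against 27.0, 23.0 and 40.1 with LacZ probes. None of these 3 separated the probe sets. The large scaffold subunits PSMD1 and PSMD2 read 34.9, 42.5 and 37.5 FPKM and 43.3, 54.5 and 37.2 FPKM with SNHG10 probes, against 35.1, 30.2 and 37.9 and 42.3, 49.0 and 47.5 FPKM with LacZ probes. Both overlapped.

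Of the other lid subunits, PSMD8 read 61.4, 50.1 and 58.3 FPKM with SNHG10 probes, against 72.6, 77.7 and 58.8 with LacZ probes (log2 difference -0.29 ± 0.16, limma adjusted p = 0.911). PSMD13 read 20.7, 19.8 and 3.87 FPKM with SNHG10 probes, against 20.01, 37.3 and 25.8 with LacZ probes (-1.10 ± 0.57, limma adjusted p = 0.903). SNHG10 replicate 3 was the low library of PSMD13, and the difference without it was -0.39. PSMD7, the partner of PSMD14, read 29.4, 34.2 and 33.2 FPKM with SNHG10 probes, against 42.5, 45.0 and 28.5 with LacZ probes. PSMD11 read 29.1, 23.0 and 12.8 FPKM with SNHG10 probes, against 29.0, 21.4 and 31.8 with LacZ probes. PSMD6 read 30.8, 37.2 and 26.1 FPKM with SNHG10 probes, against 26.8, 36.5 and 39.7 with LacZ probes. PSMD12 was the lowest, with 6.16, 10.8 and 8.11 FPKM with SNHG10 probes, against 9.79, 8.79 and 10.5 with LacZ probes. Among the 11 non-ATPase subunits, 4 log2 differences were positive and 7 negative, with a median of -0.12, and no probe sets were separated.

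PSMD9, PSMD10 and PSMD5 are chaperones that assemble the base of the 19S particle and leave before it is complete. PSMD9 (chromosome 12, 122326637 to 122356203, plus strand) had the smallest unadjusted p of all members, 0.0155 by limma, and an adjusted p of 0.885. It read 28.3, 35.8 and 35.9 FPKM with SNHG10 probes, against 17.97, 25.0 and 21.7 with LacZ probes, with a log2 difference of 0.61 ± 0.20 and no overlap (exact permutation p = 0.1, two-sided). Over leave-one-out runs the difference ranged from 0.49 to 0.72. The longest listed transcript of PSMD9, PSMD9-207, did not go with the sum and had a log2 difference of -0.21. PSMD10, also called gankyrin, read 21.2, 15.99 and 21.9 FPKM with SNHG10 probes, against 18.8, 17.2 and 11.2 with LacZ probes, and PSMD5 10.7, 4.09 and 9.87 FPKM with SNHG10 probes, against 9.62, 6.11 and 7.14 with LacZ probes. These 2 overlapped.

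The activators can replace the 19S cap. PSME1 and PSME2 encode the interferon-induced PA28 alpha and beta subunits, which act as 1 complex. PSME1 (chromosome 14, 24605367 to 24608176, plus strand) read 51.8, 30.3 and 33.4 FPKM with SNHG10 probes, against 54.8, 68.2 and 51.0 with LacZ probes. SNHG10 replicate 1 overlapped the LacZ libraries and the other 2 lay below them, with a log2 difference of -0.61 ± 0.23 and a limma adjusted p of 0.885. PSME2, its neighbour 4398 bases away on the opposite strand, read 23.4, 32.0 and 26.3 FPKM with SNHG10 probes, against 18.3, 39.0 and 23.8 with LacZ probes (0.07 ± 0.28). PSME3, the nuclear PA28 gamma, read 40.1, 14.1 and 40.2 FPKM with SNHG10 probes, against 21.2, 49.2 and 49.1 with LacZ probes. PSME4 (chromosome 2, 54091204 to 54197977, minus strand), a nuclear activator known for degrading acetylated histones, read 7.59, 7.05 and 7.80 FPKM with SNHG10 probes, against 5.66, 5.26 and 5.68 with LacZ probes. PSME4 had the least spread of the 4 activators and no overlap, with a log2 difference of 0.38 ± 0.25 and a limma adjusted p of 0.928 (exact permutation p = 0.1, two-sided). With a pseudocount of 5 its difference was 0.24.

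PSMF1, the inhibitor PI31, read 30.0, 14.7 and 38.3 FPKM with SNHG10 probes, against 30.3, 23.8 and 33.4 with LacZ probes. PSMG1 to PSMG4 are chaperones that pair up to build the alpha ring. PSMG1 read 11.98, 11.4 and 13.5 FPKM with SNHG10 probes, against 11.5, 19.2 and 8.57 with LacZ probes, and PSMG2, its partner, 11.98, 13.4 and 7.54 FPKM with SNHG10 probes, against 11.4, 16.6 and 1.85 with LacZ probes. PSMG3 read 28.8, 21.8 and 13.8 FPKM with SNHG10 probes, against 32.0, 15.3 and 28.6 with LacZ probes, and PSMG4, the partner of PSMG3, 14.4, 16.7 and 2.75 FPKM with SNHG10 probes, against 3.91, 20.2 and 16.1 with LacZ probes. The 4 PSMG genes, all above the median level of the genes tested, varied widely within a probe set, with a median SD of 0.78 on the log2 scale beside 0.40 for all genes tested. PSMC3IP read 2.31, 0 and 3.83 FPKM with SNHG10 probes, against 4.06, 0.558 and 0.931 with LacZ probes, and no direction was read from it.

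Summed over a class, the alpha mRNAs gave 377, 279 and 331 FPKM with SNHG10 probes, against 315, 306 and 291 with LacZ probes. The standard beta mRNAs gave 581, 510.0 and 487 FPKM with SNHG10 probes, against 574, 506 and 517 with LacZ probes. The 6 ATPases summed to 200.4, 160.2 and 190.4 FPKM with SNHG10 probes, against 216, 179.8 and 186 with LacZ probes. The 11 non-ATPase subunits summed to 424, 452 and 401 FPKM with SNHG10 probes, against 452, 440.4 and 474 with LacZ probes. These 4 sums, the bulk of the proteasome, overlapped between the probe sets. The immunoproteasome sum was 62.5, 67.0 and 58.8 FPKM with SNHG10 probes, against 53.6, 45.2 and 56.2 with LacZ probes, and the 19S chaperone sum was 60.3, 55.9 and 67.7 with SNHG10 probes, against 46.4, 48.3 and 40.1 with LacZ probes. In neither did the probe sets overlap, and each followed its most abundant member: the difference between means was 11.04 FPKM for the immunoproteasome and 0.572 without PSMB9, and 16.4 FPKM for the 19S chaperones and 4.60 without PSMD9. PSMB9 alone overlapped between the probe sets, and PSMB10 was lower with SNHG10 probes. No p was computed for a sum, nor how often sums of other genes separate.

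**Figure D4:**
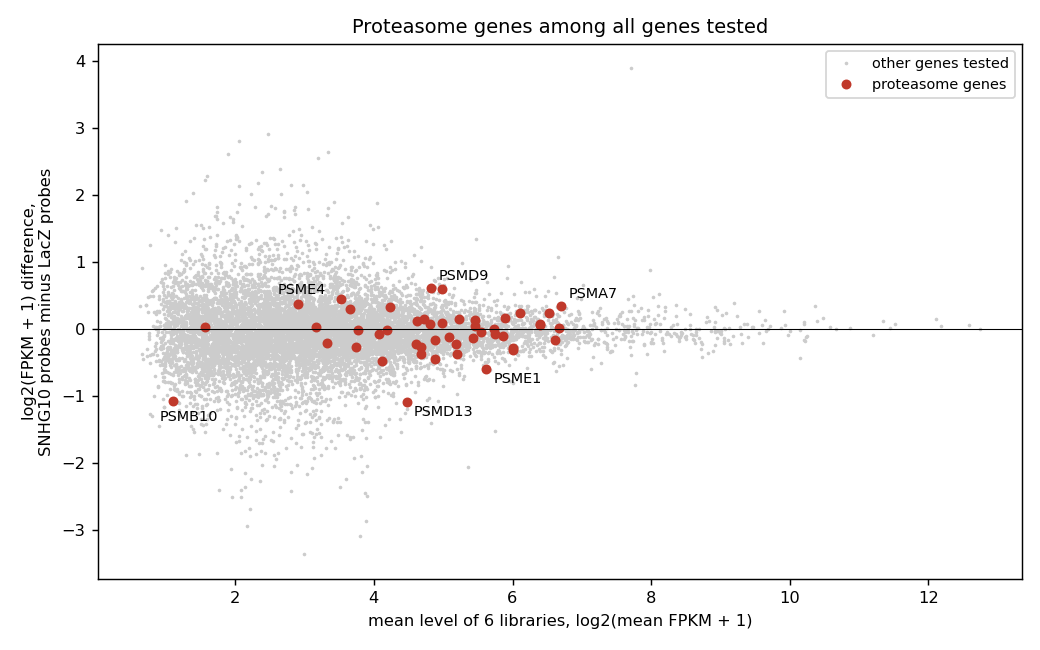
The 47 proteasome genes (red) among all other genes tested (grey). The horizontal axis is log2 of the mean FPKM of 6 libraries plus 1, and the vertical axis is the difference in log2(FPKM + 1), SNHG10 probes minus LacZ probes. Members sit mostly to the right, above the median level, and within the grey cloud; PSMB10 and PSMD13, at -1.08 and -1.10, are the 2 with a difference over 1 in size at this pseudocount (-0.36 and -0.84 with a pseudocount of 5).

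Replicate 2 tended to be the low library of the members with both probe sets. Of the 47 members, 23 (48.9%) had their lowest SNHG10 value in SNHG10 replicate 2 and 26 (55.3%) their lowest LacZ value in LacZ replicate 2. Over all genes tested these shares were 34.9% and 33.0%. In 14 members, PSMA1, PSMA2, PSMA6, PSMB2, PSMB4, PSMC1, PSMC2, PSMC3, PSMC3IP, PSMC6, PSMD4, PSMD5, PSME4 and PSMF1, replicate 2 was lowest in both sets (29.8%, against 11.5% of all genes). The labels do not say what a replicate number shares, and its part in the spread was not tested.

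The listed transcripts of a member often differed in rank between libraries. Of 142 transcript rows, 68 were above 0 in all 6 libraries and 74 were listed at 0 in at least 1. Of the 39 members with 2 or more rows, the leading transcript was the same in all 6 libraries in 19 and differed between libraries in 20. PSMA5-206 read 25.6 FPKM in SNHG10 replicate 1 and 19.2 in LacZ replicate 1 and was listed at 0 in the other 4 libraries, where PSMA5-201 carried the gene. PSMD1-203 was listed only in SNHG10 replicate 2, at 37.1, where PSMD1-201 read 3.06 FPKM. In SNHG10 replicates 1 and 3 PSMD1-201 read 33.2 and 30.1 FPKM, within its range of 27.1 to 37.1 in the LacZ libraries. PSME1-210 was listed only in LacZ replicate 2, at 58.2. In PSMB5, whose sum varied little, PSMB5-202 read 32.7, 53.5 and 31.6 FPKM with SNHG10 probes, against 2.12, 27.0 and 32.7 with LacZ probes, and PSMB5-205 reached 27.1 in LacZ replicate 1.

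Transcript rows gave no call either. Of 84 member rows tested among 16618, 0 passed the same limma test, with a smallest adjusted p of 0.818, while 0.0481% of all rows were called higher and 0.0421% lower. At an unadjusted p under 0.05 there were 6 member rows, beside 5.66% of all rows. Libraries did not overlap in 6 tested member rows, 4 higher and 2 lower with SNHG10 probes, beside 10.5% of all rows. PSMD9-205 (122326690 to 122337759), which ends well before the longest listed transcript of the gene, read 22.1, 30.7 and 21.0 FPKM with SNHG10 probes, against 9.11, 18.4 and 4.72 with LacZ probes (log2 difference 1.28, limma adjusted p = 0.820). PSMD9-208 was listed only in LacZ replicate 3, at 12.2, and the difference of PSMD9-205 was wider than that of the gene sum. The longest transcript, PSMD9-207, read 6.19, 5.11 and 3.92 FPKM with SNHG10 probes, against 6.64, 6.62 and 4.80 with LacZ probes (-0.21, limma adjusted p = 0.958). PSMD9-201 was above 0 only in SNHG10 replicate 3, at 10.95, and LacZ replicate 1, at 2.22. PSMB9-207 read 34.4, 37.0 and 36.1 FPKM with SNHG10 probes, against 25.1, 13.3 and 27.1 with LacZ probes (0.75, limma adjusted p = 0.856). That row did not overlap, unlike the sum: PSMB9-209, which starts 133 bases from the start of PSMB8 on the opposite strand, added 10.6 FPKM in LacZ replicate 3 alone. PSMD8-210 read 14.4, 6.62 and 8.67 FPKM with SNHG10 probes, against 28.2, 15.1 and 16.6 with LacZ probes, and PSMC6-218 read 3.56, 0 and 1.87 FPKM with SNHG10 probes, against 13.4, 3.03 and 10.8 with LacZ probes (adjusted p = 0.859 for both, limma). No member row was listed at 0 throughout one probe set and above 0 throughout the other.

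**Figure D5:**
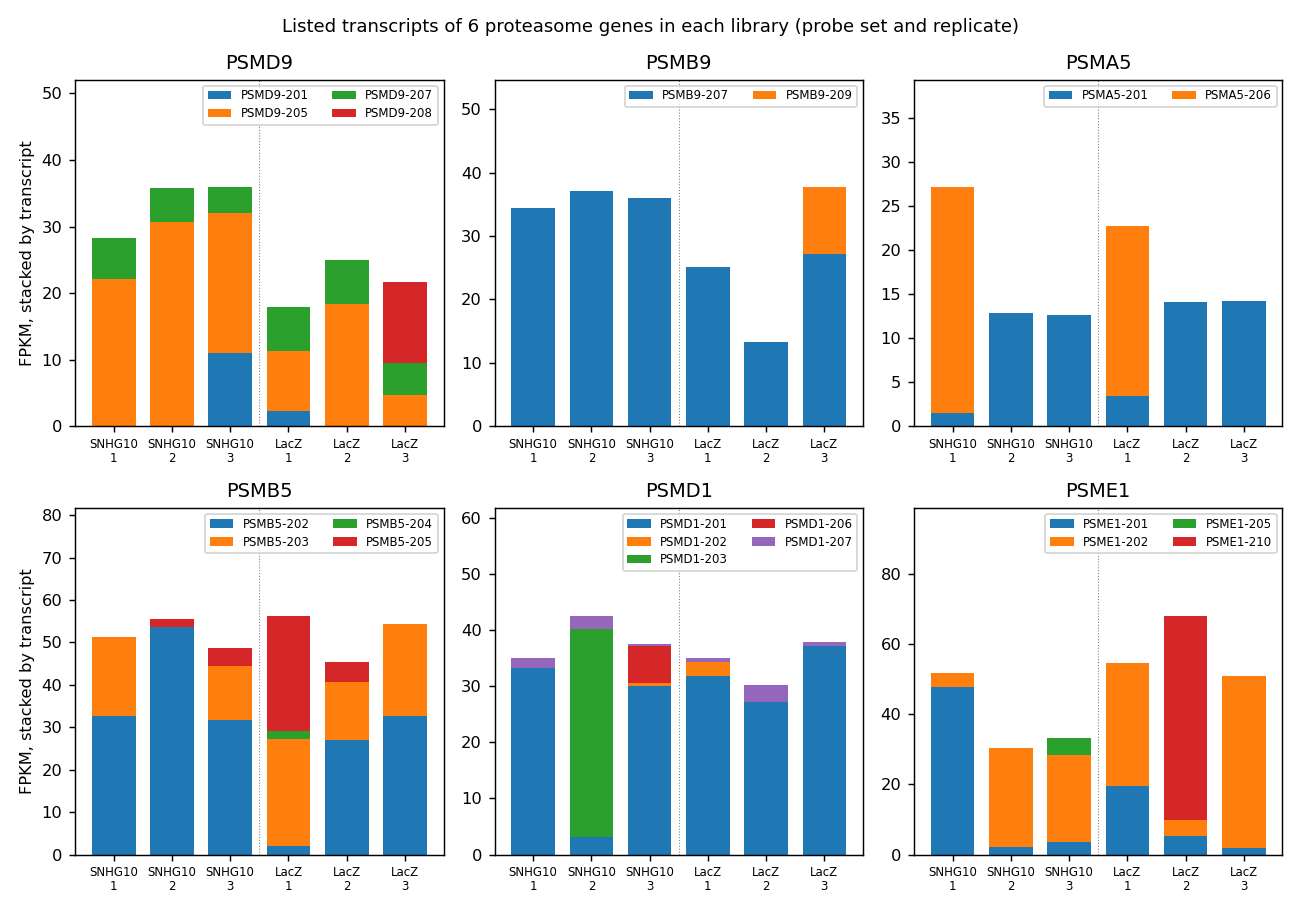
FPKM of each listed transcript, stacked, in the 6 libraries for PSMD9, PSMB9, PSMA5, PSMB5, PSMD1 and PSME1, with SNHG10 libraries left of LacZ libraries. Colours are transcripts of a gene. The stack height of PSMB5 stays between 45.5 and 56.3 FPKM while its colours change, and PSMA5-206 appears only in replicate 1 of each probe set.

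Some members have pseudogenes by name, and their sequences were not compared here. The RefSeq table names at least 1 pseudogene for 21 of the 47 members, with 13 for PSMC1, 6 for PSME2 and 4 each for PSMA6 and PSMD7, so reads could be split there. PSMA3, PSMB8, PSMD3, PSMD6 and PSMG3 have a named antisense gene, and whether the estimate used strand is not given in the sources used here. None of PSMD9, PSME4 and PSMB10 has a named pseudogene, and PSMA7 has 1.

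Genes that work with the proteasome gave no call. Of 43 partners listed for comparison, 40 were in the files and 39 were tested. Of these ubiquitin genes, shuttle factors and regulators, 0 passed limma. At an unadjusted limma p under 0.05 there were 4, beside 5.42% of all genes tested. Among the log2 differences 15 were positive and 24 negative, and the median was -0.08. NGLY1, the glycanase that activates NRF1, read 1.21, 0 and 0 FPKM with SNHG10 probes, against 6.88, 4.03 and 7.29 with LacZ probes (log2 difference -2.41 ± 0.44, limma adjusted p = 0.584). It was listed at 0 in 2 libraries, where a 0 can be a failed estimate, so the size of its difference rests on the pseudocount. UCHL5, a deubiquitinase of the 19S particle, read 2.35, 2.80 and 1.27 FPKM with SNHG10 probes, against 5.11, 8.85 and 5.65 with LacZ probes (-1.26 ± 0.36). SEM1, a small subunit of the lid, read 43.1, 67.3 and 74.4 FPKM with SNHG10 probes, against 37.5, 12.9 and 25.5 with LacZ probes (1.34 ± 0.38), and the limma adjusted p was 0.864 for both. UBQLN2 and UBQLN4, which carry ubiquitinated proteins to the proteasome, read 14.8, 14.6 and 15.2 FPKM and 21.5, 27.4 and 29.4 FPKM with SNHG10 probes, against 12.7, 14.4 and 13.97 and 30.7, 35.2 and 29.7 FPKM with LacZ probes. In each of these partners the libraries of the probe sets did not overlap. SEM1 and UBQLN2 were on the higher side with SNHG10 probes, and NGLY1, UCHL5 and UBQLN4 on the lower side. Of the 39 partners tested, 15.4% did not overlap, beside 11.4% of all genes tested.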

How the data were processed

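RNA was measured in 3 SNHG10 and 3 LacZ probe libraries, grouped by the labels. The authors deposited 1 FPKM value for each transcript and library, per the file headers. The submitters' processing notes name Bowtie2 2.1.0 and the build hg19, and the program that made the FPKM is not given in the sources used here. Over all libraries, 159 values between 0 and 0.001 FPKM, down to 5e-06, lie under what a whole read would give, so the depth is unknown. FPKM were summed per gene and tested with limma 3.58.1 (R 4.3.3) on log2(FPKM + 1), with trend, after keeping genes that reached 1 FPKM in 3 or more libraries. The fit was also run on simulated data, and the outcome is not reported here. Single values were also compared with an exact permutation test over 20 assignments (two-sided), whose smallest p is 0.1. The members and lists were chosen with earlier results of these data known. Values of all 6 libraries were printed for the 8 members with the smallest p, those not overlapping, the catalytic subunits, the 3 most abundant, those listed at 0 and, beyond this rule, the others. Alternatives covered pseudocount, filter, scaling, eBayes settings, the replicate block and leaving out each library. The values of 1 partner gene are not reported here.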

Additional observations from a re-analysis of the deposited data

How the results depend on the processing

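No member gene and no member transcript was called under any alternative, and the smallest adjusted p of a member was 0.782 by limma. The labels do not say that replicate numbers pair the samples, same-numbered libraries of the probe sets correlated at only 0.0151, 0.0121 and 0.0161 in their deviations from the group means, and with the replicate block 0 genes, 0 members and 0 member transcripts were called. Each library correlated best with its own number, but all these values were near 0. Libraries of different numbers ran from -0.0243 to 0.0085, in part farther from 0, so no pairing was read from them. Over all genes the count was 0, and ranged from 0 to 1 when a library was left out, with 1 without SNHG10 replicate 1 and 1 without LacZ replicate 2. Of 703 member log2 differences under alternatives, 650 kept their sign and 53, in 23 members, did not; the cause was not tested. With median-ratio scaling the turned values were PSMA5 0.0453, PSMB5 0.0581, PSMD2 0.00615 and PSMG1 0.0407, with quantile normalization PSMA5 0.0434, PSMB5 0.0418 and PSMG1 0.0485, and with a pseudocount of 0.1 PSMC3IP -0.52. Leaving out 1 library at a time gave log2 differences of PSMA1 -0.28 to 0.12, PSMA2 -0.24 to 0.22, PSMA3 -0.73 to 0.69, PSMA5 -0.36 to 0.20, PSMB2 -0.31 to 0.0265, PSMB3 -0.19 to 0.21, PSMB5 -0.0936 to 0.0579, PSMB6 -0.15 to 0.21, PSMB8 -0.11 to 0.33, PSMC3 -0.26 to 0.052, PSMC3IP -0.45 to 0.69, PSMC6 -0.51 to 0.0838, PSMD14 -0.0837 to 0.30, PSMD2 -0.20 to 0.0732, PSMD4 -0.11 to 0.32, PSMD5 -0.19 to 0.41, PSME2 -0.17 to 0.35, PSME3 -0.77 to 0.11, PSMF1 -0.44 to 0.22, PSMG1 -0.26 to 0.28, PSMG2 -0.34 to 0.97, PSMG3 -0.53 to 0.0498 and PSMG4 -0.92 to 0.45. Without the most abundant member, the difference between class sums was 0.572 FPKM for the immunoproteasome and 4.60 for the 19S chaperones. With the most abundant transcript of each gene alone, the PSMB8 to PSMB5 ratio differed by -2.76 (SNHG10 probes minus LacZ probes), beside 0.0297 from gene sums, where PSMB5-202 read 2.12 FPKM in LacZ replicate 1. The comparison of library overlap under both scalings was chosen after seeing the data, and the same 4 members did not overlap. Depth is unknown, so values near 0 carry no counting error here.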
